A study of Rattus norvegicus with 15 samples.

Results

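MiR-152 and miR-185 are small RNAs that have both been reported to target the mRNA of Dnmt1, and they were taken from 15 miRNA arrays of rat liver by the name the array design gives each probe. They are 2 of the 350 miRNAs on the array and 2 of the 134 that were tested. They were selected on the scaled signals of these same arrays, where both were higher in ethanol-fed liver, so every diet difference given for them is a description and has no test. Each array held RNA pooled from 4 rats on an ethanol diet fed for a long period (EtOH) or a carbohydrate control diet fed to matched partners (CHO). Liver was taken at partial hepatectomy (PHx), the surgical removal of part of the liver, or at 1, 6, 12 or 24 h after it. There were 3 EtOH and 4 CHO pools before PHx and 1 pool per diet at each of the 4 times after PHx. Of the 8 pools, 7 were measured both before and after PHx, so liver taken at surgery is the baseline of the same animals. The 24 h EtOH pool lacks that baseline among the arrays analysed here. The labels give no strain, sex or age, and the unmanipulated liver is represented only by tissue removed at surgery.

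DNMT1 is the methyltransferase that copies CpG methylation onto newly made DNA strands, and cells that divide need it to keep their methylation pattern. After PHx the remaining hepatocytes leave the resting state and enter the cell cycle. A miRNA guides a silencing complex to an mRNA mainly through its seed, the stretch of bases 2 to 8, and a shared seed means overlapping sets of predicted targets. MiR-152 belongs to the miR-148 family, whose members have been reported to repress DNMT1. MiR-185 has been reported to repress DNMT1 and also genes of cholesterol uptake.

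The mature sequences are shown because the members have different seeds, while miR-152 shares its seed with relatives that could serve as a comparison. They come from RefSeq for the rat build GRCr8 and are written from the 5′ end to the 3′ end, with the seed in capitals. The array's plain names miR-152 and miR-185 were matched to the arms miR-152-3p and miR-185-5p.

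miR-152-3p: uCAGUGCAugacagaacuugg
miR-148a-3p: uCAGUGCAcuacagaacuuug
miR-148b-3p: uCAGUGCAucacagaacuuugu
miR-185-5p: uGGAGAGAaaggcaguuccuga

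Counting from the 5′ end of miR-152-3p, miR-148a-3p differs by U9C, G10U and G20U, and miR-148b-3p differs by G10C and G20U over the 21 bases compared. All 3 family members therefore have the seed CAGUGCA, and their differences lie outside it. No other rat mature miRNA in the table shared the seed GGAGAGA of miR-185-5p. In GRCr8 the mature miR-152-3p lies at chr10:82329435-82329455 on the plus strand, within the gene Copz2, which encodes a coat protein subunit of transport vesicles. The mature miR-185-5p lies at chr11:96169041-96169062 on the plus strand, within the gene Tango2. Both hairpins run in the direction of their host gene, and the table used does not say whether they are exonic or intronic.

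Between 108 and 131 miRNAs were detected per array. To count as detected, a probe needed the scanner software's flag for a signal well above background on a share of 0.5 or more of its kept spots. Signals are on a linear scale in arbitrary units, divided by each array's 75th percentile over 185 probes detected on all arrays; they are called scaled signals below. Before scaling, that percentile was 236.5 on EtOH before PHx replicate 3 and 288.1 to 515.5 on the other 14 arrays. EtOH before PHx replicate 3 also had a median coefficient of variation between spots of a probe of 36.6%, against 6.75% to 8.62% on the others, so results that rest on it are given with and without it. The arrays lay on 2 slides that each held both diets, but on every slide EtOH before PHx took position 1 in the row, EtOH after PHx position 2, CHO before PHx position 3 and CHO after PHx position 4. Diet and position on the slide therefore cannot be told apart.

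MiR-152 was higher in ethanol-fed liver on all arrays after scaling, both before PHx and at each time after it. Its probe was detected on 15 of 15 arrays. Before PHx the scaled signal of miR-152 was 91.4, 100.7 and 105.1 in the 3 EtOH pools and 75.4, 76.6, 82.0 and 74.1 in the 4 CHO pools. The lowest EtOH pool before PHx stood above the highest CHO pool, and the means were 99.1 ± 6.98 (SD, n = 3) and 77.0 ± 3.45 (SD, n = 4). The EtOH mean was 1.28 times the CHO mean on the log2 scale, a log2 difference of 0.36.

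After PHx the scaled signal of miR-152 in EtOH was 95.05 at 1 h, 92.2 at 6 h, 91.6 at 12 h and 88.0 at 24 h. In CHO it was 69.5, 69.0, 67.4 and 74.97 at the same times. The diets did not overlap after PHx either, with a log2 difference of 0.39, or 1.31-fold. From high to low, the levels ran from EtOH before PHx through EtOH at 1, 6, 12 and 24 h to CHO before PHx and then CHO at 24, 1, 6 and 12 h. Neighbours in that order differed by no more than the SD of their own diet's pools before PHx except at 2 steps, from EtOH at 24 h to CHO before PHx (88.0 against 77.0) and from CHO at 24 h to CHO at 1 h (74.97 against 69.5). Within slides, the log2 diet difference of miR-152 was 0.34 and 0.43 before PHx and 0.43 and 0.34 after PHx, for slides 1 and 2 in that order. The only EtOH array before PHx on slide 2 was EtOH before PHx replicate 3, so the 0.43 before PHx rests on it. Over both slides without that array, the log2 difference of miR-152 before PHx was 0.32.

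MiR-185 was also higher in EtOH on all arrays after scaling, but near the limit of detection. The probe that stands for it was detected in 2 of 3 EtOH pools and 1 of 4 CHO pools before PHx. After PHx it was detected in 4 of 4 EtOH pools and 0 of 4 CHO pools. Before PHx its scaled signal was 11.6, 14.4 and 11.5 in EtOH and 9.13, 8.43, 9.04 and 9.81 in CHO. The ranges did not overlap, with means of 12.5 ± 1.66 (SD, n = 3) and 9.10 ± 0.565 (SD, n = 4). The 11.5 in EtOH was that of replicate 3, which was not detected. It lay below 12.99, the lowest scaled signal detected on that array.

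After PHx the scaled signal of miR-185 in EtOH was 12.7 at 1 h, 12.1 at 6 h, 11.9 at 12 h and 12.4 at 24 h. In CHO it was 10.66, 8.58, 8.31 and 8.68 at the same times, the last 3 below the floor of 9.61 that was set before taking log2. Values at the floor have no order, and 6 of the 8 CHO arrays were at it while none of the 7 EtOH arrays was. EtOH before PHx replicate 3 was above that floor without being detected. The EtOH arrays after PHx spanned less than 1 unit, so the levels at the 4 times could not be ordered beyond the spread of the pools before PHx. On the floored log2 scale the diet difference was 0.37 before PHx and 0.32 after PHx. Since miR-185 did not meet the rule for detection on any CHO array after PHx, the difference after PHx is given as at least 1.16-fold higher in EtOH. For this, each undetected array was set at the higher of its own signal and the lowest signal detected on it. Within slides, the log2 diet difference of miR-185 was 0.43 and 0.24 before PHx and 0.29 and 0.34 after PHx, for slides 1 and 2 in that order. The 0.24 rests on EtOH before PHx replicate 3, the only EtOH array before PHx on slide 2. Over both slides without that array, the difference before PHx kept its sign.

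**Figure D1:**
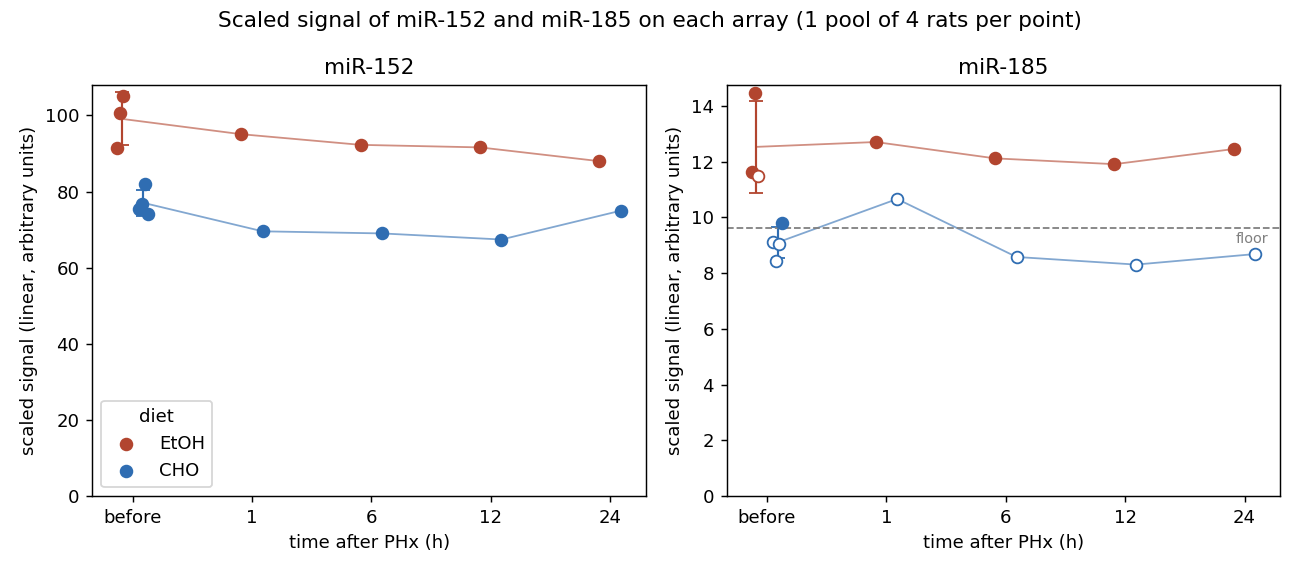
Scaled signal (linear axis from 0, arbitrary units) of miR-152 and miR-185 on each of the 15 arrays, by time after PHx in h and by diet; bars before PHx are the mean ± SD of 3 EtOH or 4 CHO pools and lines join that mean to the single pools after PHx. Filled points are detected, open points are not, and the dashed line is the floor of 9.61; the EtOH arrays of miR-152 sit at 88.0 or above and its CHO arrays at 82.0 or below.

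The spots behind the miR-185 values show how near background they are. Over the EtOH arrays 50 of 65 kept spots were well above background (76.9%), and over the CHO arrays 23 of 74 (31.1%). After PHx the counts were 32 of 35 in EtOH and 8 of 40 in CHO. The CHO array with the most such spots was CHO before PHx replicate 4, with 9 of 10. EtOH before PHx replicate 3 had 2 of 10 spots above background, and its spots of miR-185 varied by 65.4%. The software's own flag per miRNA, which uses a looser limit, marked miR-185 as detected on all 15 arrays. A second probe of miR-185 was detected on none of the 15 arrays, with scaled signals of 7.23 at most, and so gave no second measure of its level. For miR-152, in contrast, all 62 kept spots in EtOH and all 77 in CHO were well above background.

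**Figure D2:**
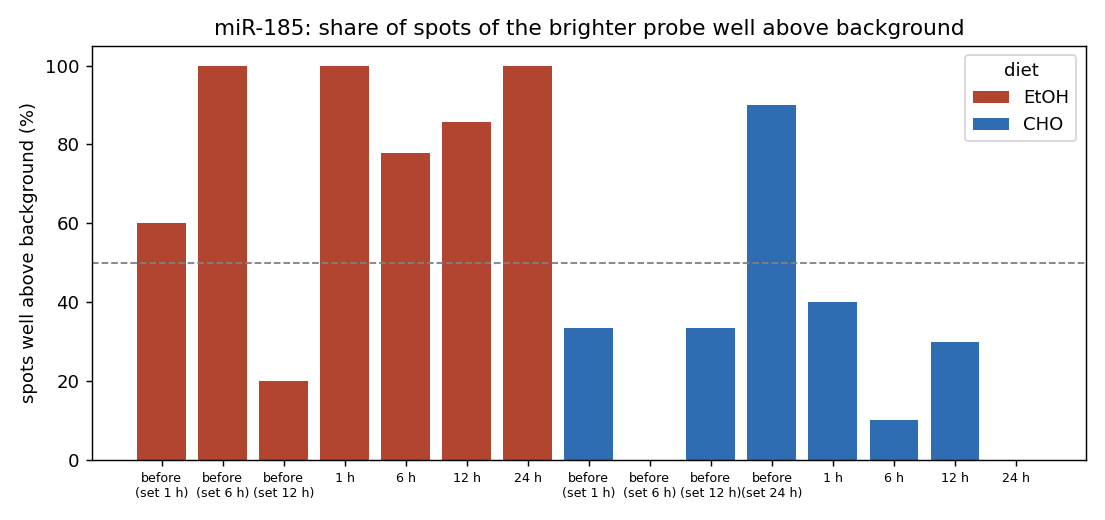
Share of kept spots of the miR-185 probe that were well above background (percent, bars from 0) on each of the 7 EtOH and 8 CHO arrays; the dashed line at 50% is the share that detection requires. CHO before PHx replicate 4 (set 24 h) and EtOH before PHx replicate 3 (set 12 h, 2 of 10 spots) stand apart from the other arrays of their diet.

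Among the 134 tested miRNAs, EtOH lay above CHO without overlap for 5 before PHx (3.73%) and for 8 after PHx (5.97%), and both members were in each group by choice. Over all 15 arrays this held for 3 miRNAs (2.24%), which were miR-151, miR-152 and miR-185. With EtOH before PHx replicate 3 left out there were 4. The membership depended on the scaling: under quantile normalization neither member separated the diets, leaving miR-151 and miR-96, and miR-185 also overlapped with scaling to all probes, total signal, the authors' deposited values and normexp, under which miR-152 stayed separate. Among all tested miRNAs, the limma fit called 2.99% higher in EtOH before PHx and 2.99% after PHx, and 15.7% and 7.46% in either direction. In either direction, 21 miRNAs were called before PHx and 10 after PHx, against 34 and 33 without that array. The median diet difference of all tested miRNAs was -0.08 before PHx and -0.05 after PHx on the log2 scale.

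The diet difference of both members before PHx depended on scaling the arrays. Unscaled, miR-152 before PHx read 67.0, 105.025 and 63.2 in EtOH and 81.3, 83.1, 82.8 and 97.1 in CHO, so the ranges overlapped and the log2 difference was -0.17. The median tested miRNA stood at -0.53 in the same unscaled comparison. Scaling multiplies all signals on an array by the same factor. The place of miR-152 above that median therefore hardly depends on scaling and gives no separate evidence of its diet difference. Unscaled, miR-185 ran from 6.91 to 15.1 in EtOH and from 9.13 to 12.9 in CHO before PHx, with a log2 difference of 0.10. After PHx the scale factors were alike in the diets, 0.865 to 1.16 in EtOH and 0.856 to 1.14 in CHO, against 0.958 to 1.66 in EtOH and 0.763 to 0.990 in CHO before PHx. No miRNA had EtOH above CHO without overlap in unscaled signal before PHx (0%), and 5 had after PHx (3.73%); neither member was among these 5.

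Paired by feeding set, the scaled signal of miR-152 in EtOH was 1.21, 1.31 and 1.28 times that in CHO before PHx, in the sets operated for 1, 6 and 12 h. After PHx the ratios were 1.37 at 1 h, 1.34 at 6 h, 1.36 at 12 h and 1.17 at 24 h. Unscaled, the ratio of miR-152 was above 1 in 1 of 3 sets before PHx and in 4 of 4 after PHx, where it ran from 1.16 to 1.55. MiR-185 was detected on none of the 7 CHO arrays in these sets, so no ratio is given for it. That the scaled ratios of miR-152 were above 1 follows from its choice.

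**Figure D3:**
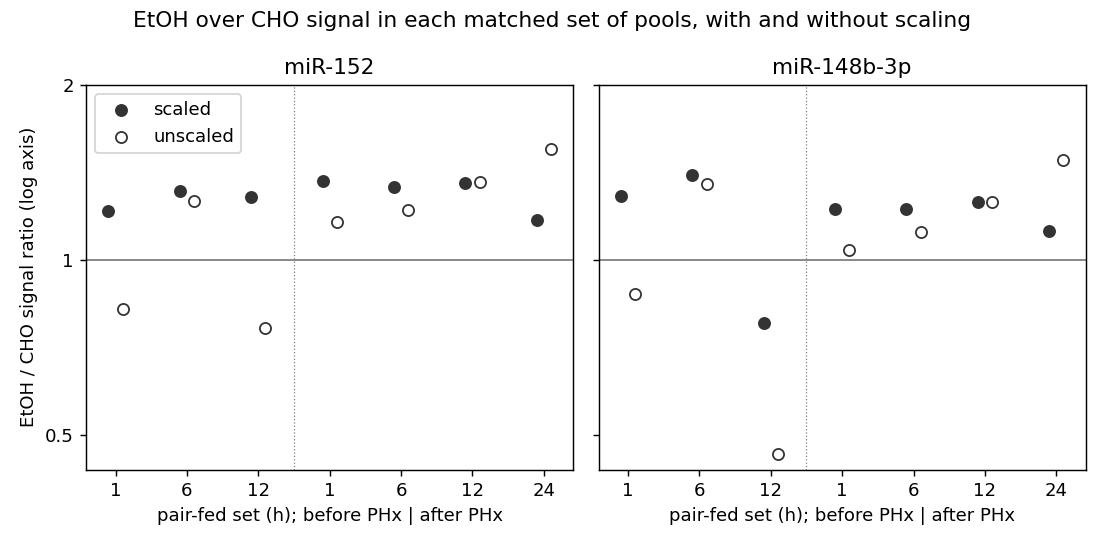
Ratio of EtOH to CHO signal (log axis) in each matched set of pools, 3 before PHx and 4 after PHx, for miR-152 and miR-148b-3p; filled points are scaled and open points unscaled signals. For miR-152 the scaled ratios lie between 1.17 and 1.37, while the unscaled ones before PHx fall below 1 in 2 of 3 sets.

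The authors' deposited log2 values separated the diets for miR-152, with 6.05 to 6.57 in EtOH and 5.54 to 5.99 in CHO over all arrays. For miR-185 these deposited values overlapped before PHx, with 3.36 to 3.97 in EtOH and 2.70 to 3.51 in CHO, and were separate after PHx, with 3.64 to 3.78 and 2.87 to 3.36. The second probe of miR-152 was detected on all 15 arrays and gave a ratio of 1.29 between the diet means before PHx and 1.25 after PHx. Its diets did not overlap before PHx and overlapped after PHx.

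The change after PHx, averaged over the diets, is a measure that the choice of members did not use. No change of miR-152 or miR-185 passed the test at 1, 6, 12 or 24 h. The shares of all 134 tested miRNAs that passed at those times were 0%, 4.48%, 5.97% and 13.4%, and the only falls among them were 1.49% at 24 h. Paired by pool, as a replicate block, these calls went from 6 to 4 miRNAs at 6 h, from 8 to 3 at 12 h and from 18 to 0 at 24 h. That paired fit has 2 residual degrees of freedom against 8 in the main fit, and the 24 h EtOH pool has no array before PHx. A call lost in it therefore need not mean a smaller change. In limma with Benjamini-Hochberg adjustment the log2 change of miR-152 was -0.10 at 1 h (adjusted p = 0.980), -0.13 at 6 h (adjusted p = 0.524), -0.15 at 12 h (adjusted p = 0.415) and -0.10 at 24 h (adjusted p = 0.491). At these times the 95% intervals reached from -0.33 at the lowest to 0.07 at the highest.

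Averaged over the 4 times, miR-152 stood 0.12 lower after PHx, with a log2 change of -0.12 (SE 0.0516, 95% interval -0.23 to -0.0081). Its unadjusted p was 0.0379 and its adjusted p 0.212, in place 7 from the lowest of 134, where the call rate was 6.72% and every called miRNA was higher. Within pools, the scaled signal of miR-152 after PHx was 1.04, 0.916 and 0.871 times that before PHx in EtOH at 1, 6 and 12 h. In CHO these ratios were 0.922, 0.900, 0.822 and 1.01 at 1, 6, 12 and 24 h. It was lower after PHx in 5 of 7 pools. Under quantile normalization the mean change of miR-152 passed the test at -0.32 (adjusted p = 0.0175), as did its change at 12 h at -0.52 (adjusted p = 0.0181), whereas without scaling both turned positive, at 0.0038 and 0.05.

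For miR-185 the log2 change was 0.08 at 1 h (adjusted p = 0.980), -0.02 at 6 h (adjusted p = 0.910), -0.04 at 12 h (adjusted p = 0.845) and -0.0040 at 24 h (adjusted p = 0.986), in the same limma fit. Its mean change was 0.0052 (SE 0.0568, 95% interval -0.12 to 0.13, adjusted p = 0.972). The floor holds most CHO values of miR-185 at one level, so a change within CHO below it could not be measured. In the 2 EtOH pools with miR-185 detected both before and after PHx, the ratio of scaled signal after to before PHx was 1.09 at 1 h and 0.839 at 6 h.

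Whether the diet difference itself moved with PHx was tested as the difference after PHx minus that before PHx, a measure built from the diet differences that chose the members. It was 0.02 for miR-152 (SE 0.103, 95% interval -0.20 to 0.25, adjusted p = 0.980) and -0.05 for miR-185 (SE 0.114, 95% interval -0.30 to 0.20, adjusted p = 0.932) in limma. None of the 134 tested miRNAs passed this test (0%), and 9 had an unadjusted p below 0.05. The intervals span changes smaller than the diet differences before PHx of 0.36 and 0.37, and a change within them could not be told from 0 with these pools. For miR-185 the interval rests on floored values.

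**Figure D4:**
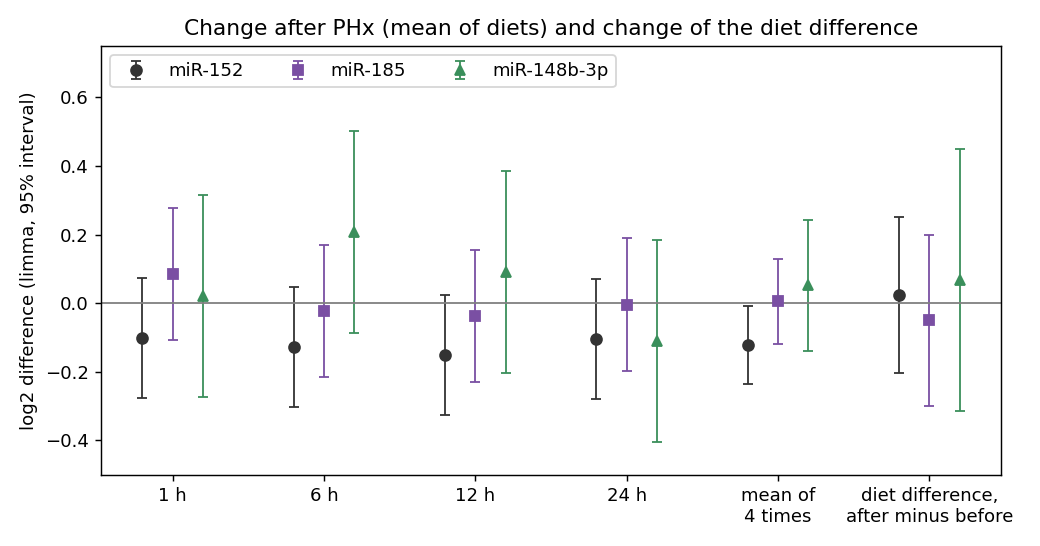
Log2 change after PHx (mean of both diets) at each time and over the 4 times, and the diet difference after minus before PHx, from the limma fit to 15 arrays, with 95% intervals, for miR-152, miR-185 and miR-148b-3p. Only the interval of miR-152 for the mean of the 4 times, -0.23 to -0.0081, lies off 0, and its adjusted p was 0.212.

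MiR-148b-3p was taken because it shares the seed of miR-152 and not by the rule that chose the members, so its diet difference was tested. It was picked with earlier results of these data known, so that test is not independent of them. MiR-148a has no probe under that name in the files. Before PHx the scaled signal of miR-148b-3p was 44.0, 42.7 and 31.6 in EtOH and 34.2, 30.4, 40.6 and 31.3 in CHO. The diets overlapped before PHx, since EtOH before PHx replicate 3 had the lowest EtOH value and its matched CHO pool the highest CHO value. After PHx it was 40.8, 46.5, 43.4 and 35.7 in EtOH and 33.4, 37.9, 34.5 and 31.8 in CHO at 1, 6, 12 and 24 h, higher in EtOH in 4 of 4 matched sets.

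The log2 diet difference of miR-148b-3p was 0.20 before PHx (SE 0.128, adjusted p = 0.364) and 0.27 after PHx (SE 0.118, adjusted p = 0.152) in limma, so neither passed. Without EtOH before PHx replicate 3, on which its spots varied by 48.8%, it was higher in EtOH both before PHx at 0.35 (adjusted p = 0.0391) and after PHx at 0.27 (adjusted p = 0.0485). Its second probe separated the diets with all arrays included, with 32.8 to 33.7 in EtOH against 23.6 to 30.8 in CHO before PHx and 29.3 to 38.6 against 23.3 to 27.5 after PHx. With the mean of its probes the difference after PHx passed the test at 0.31 (adjusted p = 0.0401), and so did the authors' deposited values at 0.45 (adjusted p = 0.0333). Without scaling, its log2 difference was -0.33 before PHx and 0.28 after PHx, and neither passed.

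Other miRNAs reported to act on DNA methyltransferases were taken as a list with the members left out. Of 14 listed, 13 were on the array and 12 were tested, among them the miR-29 family, which has been reported to repress the de novo enzymes. In limma none of the 12 passed for diet before PHx or after PHx, with 2 and 1 at an unadjusted p below 0.05. The 1 after PHx was miR-148b-3p, which is on this list too. The list's median log2 diet difference was -0.08 before PHx and -0.06 after PHx, against -0.08 and -0.05 for all tested miRNAs. Leaving out EtOH before PHx replicate 3 gave 1 higher and 0 lower at each state, and the 1 was again miR-148b-3p. Of all 134 tested miRNAs, 8 were then higher and 26 lower before PHx, and 11 higher and 22 lower after PHx. Without scaling 9 of the 12 were called lower in EtOH before PHx. In that comparison 76 of all 134 tested miRNAs were called lower and 0 higher, with a median of -0.53.

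With time after PHx, 1 of the 12 rose at 6 h and at 12 h and 2 rose at 24 h, where 4.48%, 5.97% and 11.9% of all tested miRNAs rose. MiR-21, which has been reported to lower DNMT1 indirectly, rose by a log2 change of 0.51 at 6 h (adjusted p = 0.0253), 0.82 at 12 h (adjusted p = 0.000633) and 1.11 at 24 h (adjusted p = 6.9e-05). MiR-29b rose at 24 h by 0.46 (adjusted p = 0.00886). Pool as a replicate block, the fit that pairs the same animals, leaves 2 residual degrees of freedom. In that limma fit miR-21 passed at 12 h at 0.95 (adjusted p = 0.0361) and not at 6 h (0.58, adjusted p = 0.0753) or 24 h (1.03, adjusted p = 0.144). MiR-29b did not pass at 24 h (0.24, adjusted p = 0.791). Over the alternatives the number of the 12 that rose ran from 0 to 1 at 6 h, 0 to 2 at 12 h and 0 to 3 at 24 h. The difference between these changes and those of miR-152 and miR-185 was not tested.

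A list of miRNAs reported to act on cholesterol uptake or efflux, as miR-185 does, had 10 entries, of which 9 were on the array and 8 were tested. MiR-96 was the only one of the 8 called for diet before PHx. It was detected in 3 of 3 EtOH pools and 0 of 4 CHO pools and was higher in EtOH by at least 1.62-fold. No CHO array after PHx detected it either, so it was among the tested miRNAs only through EtOH arrays. All its CHO values were at the floor, so its diet difference is a description and not a test. The call of miR-96 was made in 18 of 29 settings, a count that adds no test. The call was not made without EtOH before PHx replicate 3. In that setting 1 of the 8 was lower instead, as were 26 of all 134 tested miRNAs. None passed after PHx in limma, with 2 at an unadjusted p below 0.05. Of these, 1 was miR-96, to which the same limit applies. With time, miR-223, a miRNA of myeloid cells, rose by 0.67 at 6 h (adjusted p = 0.0104), 0.92 at 12 h (adjusted p = 0.000633) and 0.60 at 24 h (adjusted p = 0.00875). Paired by pool it passed at 6 h and 12 h (adjusted p = 0.0426 and 0.0407) and not at 24 h (0.54, adjusted p = 0.274). The list's median diet difference was -0.09 before PHx and 0.03 after PHx.

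The miRNAs whose log2 scaled signal followed the members most closely over the 15 arrays were named by Pearson correlation among 133 others. For miR-152 they were miR-151 (r = 0.893), miR-185 (0.821), miR-107 (0.778), miR-96 (0.748) and miR-31 (0.732). For miR-185 they were miR-152 (0.821), miR-107 (0.821), miR-151 (0.748), miR-30c (0.722) and miR-103 (0.691). MiR-148b-3p took place 15 for miR-152 (r = 0.494) and place 7 for miR-185 (r = 0.594). All 15 arrays enter each value and share the diets, pools and scaling, so these are descriptions of this set of arrays. Both members were chosen as higher in EtOH on these arrays, so their correlation with each other follows in part from that choice. MiR-185 was at the floor on 6 of the 8 CHO arrays, and miR-96 on all CHO arrays. In unscaled signal the correlation of miR-152 with miR-151 was 0.913 and with miR-96 0.432. The log2 diet differences of miR-151 were 0.27 before PHx and 0.23 after PHx, and those of miR-107 were 0.30 and 0.40.

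Pooled liver RNA mixes cell types, so fewer cells of a type and less of a miRNA per cell cannot be told apart. The hepatocyte miRNAs miR-122, miR-192 and miR-194 were all detected on every array, with summed scaled signals of 35965 to 46363, and 0 of 3 passed for diet before or after PHx in limma (0 at an unadjusted p below 0.05 in either state). Of the epithelial markers 2 of 3 tested were called lower in EtOH before PHx, against 12.7% of all tested miRNAs, and 0 to 2 over the alternatives: miR-200a at -0.45 (adjusted p = 0.0167) and miR-200b at -0.57 (adjusted p = 0.0152). Their list of 5 summed to 52.4 to 60.6 in EtOH and 72.2 to 88.1 in CHO before PHx, overlapped after PHx with 60.1 to 78.4 and 60.8 to 80.0, and had miR-200c and miR-141 detected on no array. Of the leukocyte markers 1 of 3 tested passed before PHx (0 to 3 over the alternatives), miR-142-3p at -0.50 (adjusted p = 0.0435), while miR-223 stood at 0.03 (adjusted p = 0.920), with summed signals of 141.1 to 159.7 in EtOH and 160.3 to 193.9 in CHO and miR-142-5p detected on no array. After PHx these sums were 160.1 to 191.0 in EtOH and 163.7 to 236.2 in CHO.

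Stellate markers (0 of 5 passed, 3 at an unadjusted p below 0.05) summed to 524.7 to 594.1 in EtOH and 617.0 to 667.6 in CHO before PHx, although miR-145 among them stood at 0.24 (adjusted p = 0.379). Endothelial markers (0 of 2 passed, 1 at an unadjusted p below 0.05) summed to 1064 to 1133 in EtOH and 1210 to 1300 in CHO. After PHx the stellate sums were 513.1 to 711.9 in EtOH and 579.5 to 689.5 in CHO, and the endothelial sums 1032 to 1236 and 1172 to 1293. Erythroid markers (0 of 2 passed, 0 at an unadjusted p below 0.05 before PHx and 1 after PHx) had overlapping sums in the diets before PHx and ran from 873.3 to 1210 in EtOH and 354.8 to 847.1 in CHO after PHx. Before PHx the summed markers of the epithelial, leukocyte, stellate and endothelial lists were thus below CHO on all EtOH arrays. For the leukocyte list the margin was small, 159.7 against 160.3. The tested miRNAs as a whole also leaned lower in EtOH before PHx, with a median of -0.08, 12.7% called lower and 2.99% higher. How many of them lay below CHO without overlap was not counted. The median log2 diet difference of these marker lists kept that direction under the other scalings tried, except with normexp on the median spot signal. That gave 0.20 for the epithelial, 0.15 for the leukocyte and 0.09 for the stellate list. In the same setting the median of all tested miRNAs before PHx was 0.19. Their part in the members' diet difference was not tested.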

How the data were processed

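Total RNA from rat liver was hybridised to 15 one-colour Cy3 Agilent miRNA arrays, 1 pool of 4 animals each. The deposited scanner files hold spot intensity, background-subtracted by Agilent Feature Extraction (10.5.1.1 per the file headers, 10.7.3.1 per the submitters' processing notes), with detection flags. The authors also deposited log2 values for these arrays, with no stated method, scale or centring, which served as an alternative.

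Spots flagged as non-uniform or outliers were left out (2503, or 2.38%). Spot means were scaled to the 75th percentile of 185 probes detected on all arrays, floored at 9.61 (log2 3.26) and log2-transformed. Each miRNA was represented by its probe of highest mean signal. MiRNAs detected on at least 3 arrays were tested (134). Limma 3.58.1 in R 4.3.3 was fitted to the 15 arrays together, with a diet term for each state (before or after PHx) and a term per time (8 residual degrees of freedom), with Benjamini-Hochberg adjustment over 134 miRNAs and calls at an adjusted p under 0.05. The fit was checked on simulated data.

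The members and lists were chosen with earlier results of these data known. Named were the members, list members as examples and the 5 miRNAs most correlated with each member. The p-values measure differences between pools. The 1 h and 6 h pools of each diet share 1 animal identifier. The labels' animal identifiers pair arrays before and after PHx; deviations of paired arrays across 134 miRNAs correlated between -0.10 and 0.24. The number of arrays limits the precision.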

Additional observations from a re-analysis of the deposited data

Results flagged for a closer look

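MiR-185 in CHO pools before PHx stood out because 1 of the 4 pools, replicate 4, lay at 3.29 on the log2 scale while the other pools were at the floor. Its gap to them was the whole range of the group. The distance from the floor of 3.26 is 0.03, and the array was the only CHO array on which miR-185 was detected, with 9 of 10 spots well above background. With 3 of 4 values at the floor, any value above it meets the rule. Without the floor, the same gap was 0.492 of the range, under the critical value for 4 samples.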

How the results depend on the processing

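Without scaling, the log2 diet difference of miR-152 before PHx was -0.17, and its change after PHx was 0.11 at 1 h, 0.053 at 12 h, 0.012 at 24 h and 0.0038 over the 4 times; for miR-185 the diet difference before PHx was 0.10, after minus before PHx 0.18, and the change 0.038 at 12 h and 0.13 at 24 h. Without scaling 0 miRNAs were higher in EtOH on all arrays, and within slide 1 there were 16. Scaling to all probes gave 0.64 for the diet difference of miR-152 after PHx and, for miR-185, 0.44 for it, 0.031 for after minus before PHx, -0.021 for the mean change and 0.040 at 24 h. Quantile normalization gave miR-152 0.53 for diet after PHx, -0.32 for the mean change and -0.52 at 12 h, the last 2 past the test, and miR-185 0.030 for after minus before PHx, -0.025 for the mean change and 0.025 at 24 h. The authors' values gave 0.55 and 0.57 for diet after PHx, and for miR-185 0.17, -0.027 and 0.018 for after minus before PHx, the mean change and 6 h. Normexp, planned for the mean spot signal and run on the median spot signal after seeing the files, gave 0.25 and 0.10 for diet after PHx, -0.13 for after minus before PHx of miR-152, and -0.093, -0.14 and 0.00059 for the mean change, 1 h and 6 h of miR-185; the version on the mean spot signal was not run. The mean over probes gave miR-152 -0.0045 for after minus before PHx and 0.012 at 24 h, and miR-185 0.18 and 0.16 for diet before and after PHx. Total signal gave miR-185 0.15, 0.074 and 0.023 for after minus before PHx, 6 h and 12 h, and a floor of 1 gave it 0.45 for diet after PHx and -0.016 for the mean change. Slide as a block gave miR-185 0.031 at 24 h, and slide 2 alone gave -0.096 for after minus before PHx of miR-152 and, for miR-185, 0.24 for diet before PHx, 0.097 for after minus before PHx, 0.018 at 12 h and 0.050 at 24 h. The pool as a replicate block, which pairs arrays of the same animals, gave 0.064 for miR-152 at 24 h, and -0.0078 for the mean change and 0.025 at 12 h for miR-185, as did the feeding set as a replicate block at 12 h (0.025); no block changed a call of miR-152 or miR-185. Over all miRNAs the pool block took the calls at 24 h from 18 to 0 and the feeding set block took them to 5. These blocks leave 2 and 5 residual degrees of freedom in that order, against 8 in the main fit. The cause of these shifts was not tested.

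Leaving out 1 array at a time kept the sign of both members' diet differences and of the changes of miR-152 and of miR-185 at 1 h. The change of miR-152 at 24 h ran from -0.21 without CHO 24 h to -0.00019 without EtOH 24 h. Leaving out 1 array gave -0.033 to 0.076 for after minus before PHx of miR-152, and for miR-185 -0.11 to 0.057 for after minus before PHx, -0.024 to 0.059 for the mean change, -0.053 to 0.030 at 6 h, -0.065 to 0.017 at 12 h and -0.041 to 0.049 at 24 h. The sign of miR-185 turned without EtOH before PHx replicate 2 at 6, 12 and 24 h and for after minus before PHx, without CHO 24 h at 24 h, and for the mean change without EtOH before PHx replicate 1 or 3, CHO 1 h or EtOH 24 h; that of miR-152 turned for after minus before PHx without EtOH before PHx replicate 1 or CHO before PHx replicate 3. Over the alternatives the number of miRNAs called ran from 1 to 76 for diet before PHx (21 in the main setting), 0 to 33 for diet after PHx (10), 0 to 1 at 1 h (0), 0 to 14 at 6 h (6), 1 to 13 at 12 h (8), 0 to 24 at 24 h (18), 1 to 15 for the mean change (9) and stayed 0 for after minus before PHx. The count of arrays and, for miR-185, signal close to background limit all of these.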
